A study of Homo sapiens with 24 samples.

Results

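Gene expression was compared between CYT2 cells and vector cells of the MCF10A line, a human breast epithelial line that grows in culture without being tumorigenic, in the absence of ligand. CYT2 cells expressed introduced ERBB4, a receptor tyrosine kinase, in its CYT2 isoform, and vector cells carried the control vector. Both were starved of serum for 48 h, and no neuregulin 1 (NRG1) was added during the last 2 h. The arrays were chosen by their labels alone, as the CYT2 and vector arrays without NRG1, which gave 8 of the 24 arrays of the series. They hold 2 biological samples per line, each read on 2 technical arrays. The other groups were vector and CYT2 cells after 2 h of NRG1 and CYT1 cells with and without NRG1, again with 2 samples of 2 arrays each and after the same starvation. The series title describes stable expression of full-length JM-a receptors, whereas the sample labels place the letters ICD before the isoform name. Neither says how many clones each line represents or whether the samples labelled biological replicates came from separate cultures. The p-values therefore measure the spread between these samples, which may be technical.

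ERBB4 is a receptor of the EGF receptor family that binds neuregulins and some EGF-like ligands, pairs with other members of the family and signals through the RAS-ERK pathway, among others. Alternative splicing gives it different cytoplasmic tails, and the CYT1 tail contains a stretch, absent from CYT2, to which phosphatidylinositol 3-kinase can bind. ERK signalling induces immediate-early genes, which encode transcription factors, and feedback genes, which encode phosphatases and adaptors that damp the same pathway. MCF10A cells resemble basal mammary epithelium in culture and also express genes of stratified epithelia.

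RNA was measured on Illumina BeadChips, on which a probe's intensity is the mean signal of its beads. Between 18745 and 20084 of 47323 probes were detected on these 8 arrays (detection p under 0.05), with median signals of 114 to 120.8 units. After background correction and quantile normalization, technical arrays of 1 sample differed by a root mean square of 0.199 to 0.208 on the log2 scale over 12357 genes. Sample means, each over 2 arrays, differed by 0.190 between the CYT2 samples and by 0.243 between the vector samples. The technical values compare single arrays, which carry more noise than such means, so the 2 kinds of value are not directly comparable. On the first principal component of all 12 samples (24.5% of the variance) CYT2 cells without NRG1 lay at -13.0 and -17.3 and vector cells without NRG1 at 2.64 and 5.03. The farthest sample, at 18.2, was sample 1 of the NRG1-treated CYT1 cells. It enters the comparisons through the shared estimate of the spread, and the counts without it are given further on. Values below are log2 intensities averaged over the technical arrays of a sample. Changes are log2 differences with the standard error (SE) of the fit, so that a value of 1 is a doubling, with n = 2 against 2 throughout. A gene is said to have risen or fallen where its Benjamini-Hochberg adjusted p over all 12357 genes was under 0.05 in limma.

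The mammary epithelial markers fixed for the label check were present. Of 8 such markers 5 had a named probe, and all 5 (KRT5, KRT14, CDH3, ITGB4 and CDH1) were detected on all 8 arrays. Their summed intensity was 26562 to 31803 units in the vector samples and 24042 to 26824 in the CYT2 samples. All 5 lay below 0 between CYT2 and vector cells, with a median change of -0.24, and 0 passed. Among 8 immune markers PTPRC, CD3E, TYROBP and FCER1G were detected on no array, and the list summed to 714 to 725 units in vector and 677 to 709 in CYT2 samples. Among 8 fibroblast markers LUM and PDGFRB were detected on no array while DCN and FAP were detected on all, and the list summed to 434 to 511 units in vector and 455 to 497 in CYT2 samples. Of 6 endothelial markers 5 were detected on no array, and the list summed to 133 to 136 units in vector and 134 to 136 in CYT2 samples. Whether these levels bear on the results below was not tested. In RNA from whole cultures, fewer cells that express a gene and less of its RNA per cell cannot be told apart.

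The introduced receptor could not be followed, because 0 of the 8 arrays detected the 1 probe for ERBB4. It therefore checks nothing about the labels. The other receptors of the family did not pass. EGFR, the EGF receptor, lay at 9.86 and 9.62 in vector samples and at 9.46 and 9.44 in CYT2 samples, a difference of -0.29 ± 0.11 (SE, n = 2 against 2, limma adjusted p = 0.206), with -0.23 for its other kept probe. ERBB2, a receptor with no known soluble ligand of its own, differed by 0.04 ± 0.11 (limma adjusted p = 0.91). ERBB3, a neuregulin receptor with little kinase activity, differed by -0.06 ± 0.16 (limma adjusted p = 0.909), with 0.12 for its other kept probe.

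In CYT2 cells 239 of 12357 genes differed from vector cells (1.93%), of which 71 were higher (0.575%) and 168 lower (1.36%). The lower genes included the largest changes. They were led by keratins and kallikreins of stratified epithelium, by feedback and immediate-early genes of the ERK pathway, and by growth factor and cytokine genes. The higher genes were led by the peroxisomal enzyme gene ACOX2, and 7 mitosis genes were among them. Changes past the threshold ran from 0.40 to 2.39 in size, and the median over all genes was 0.01. In all 239 the sample ranges of the groups did not overlap, which was also the case in 5330 of all genes tested (43.1%). Without adjustment, 2023 genes had a p under 0.05, of which 1017 were higher and 1006 lower.

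Leaving out 1 of the samples compared, here and below, leaves 1 sample in its group. The SE then grows, so a call can be lost whichever sample is left out. A lost call therefore does not by itself mark a sample as unusual. The number of genes changed when single samples were left out. It was 82 without sample 1 and 130 without sample 2 of the CYT2 cells, 133 without sample 1 and 80 without sample 2 of the vector cells, and 359 without sample 1 of CYT1 cells with NRG1, an alternative chosen after seeing the data. The share of higher genes, 29.7% over all samples, was 11% without CYT2 sample 1 and 22.3% without CYT2 sample 2. It was 21.8% and 31.2% without vector samples 1 and 2, and 37.6% without the CYT1 sample. Without the CYT1 sample, 9 keratinocyte, 9 ERK feedback, 9 immediate-early and 4 inflammatory genes of the lists described next fell and 11 mitosis genes rose.

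**Figure D1:**
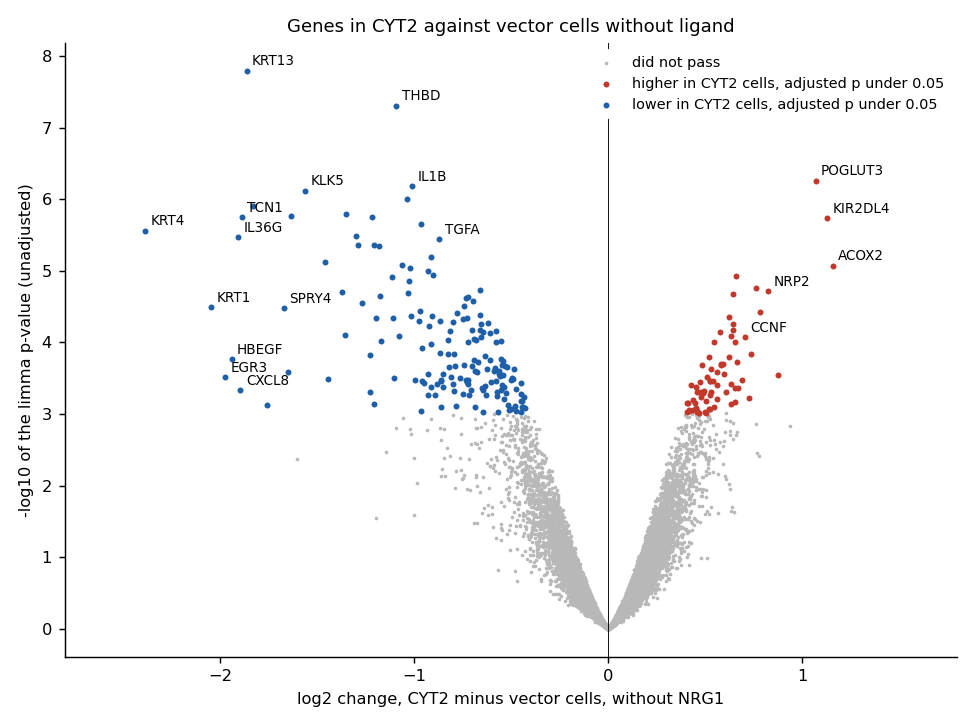
Log2 change between CYT2 and vector cells without NRG1 (x axis) against -log10 of the unadjusted limma p-value (y axis) for each of 12357 genes, with 71 genes that rose in red and 168 that fell in blue. KRT4 lies farthest to the left at -2.39 and ACOX2 farthest to the right among the genes that rose, at 1.16.

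Keratinocyte differentiation genes encode keratins, cornified envelope proteins and proteases of stratified epithelium. Of 22 measured, 9 fell and 0 rose, 19 lay below 0, and the median change was -0.43 against 0.01 for all genes. Among all genes 1.36% fell and 0.575% rose, and the counts of this and the later lists are to be read beside these shares. The share of all genes below 0 is not given here. The 9 were KRT4, KRT1, KRT13, KLK7, KLK5, KRT10, SPRR1B, KLK10 and DSC2.

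KRT4, a keratin of stratified mucosa, lay at 8.29 and 8.69 in the vector samples and at 5.59 and 6.61 in the CYT2 samples. It fell by 2.39 ± 0.29 (SE, n = 2 against 2, 5.23-fold, limma adjusted p = 0.00243). Both CYT2 samples were well below both vector samples, and they also differed from each other. KRT13, the mucosal partner of KRT4, lay at 6.40 and 6.76 in vector samples and was detected on 0 of 4 CYT2 arrays, at 4.65 and 4.77. It was at least 3.03-fold lower (limma adjusted p = 0.000197), the smallest adjusted p of the comparison. KRT1, a keratin of the suprabasal epidermis, lay at 8.05 and 8.47 in vector samples and 5.56 and 6.87 in CYT2 samples, and fell by 2.04 ± 0.32 (limma adjusted p = 0.00925). Its partner KRT10 lay at 11.95 and 12.17 against 10.63 and 11.28, and fell by 1.11 ± 0.18 (limma adjusted p = 0.0105). Keratin genes are similar in sequence, and the share of a relative's RNA in the signal of such a probe was not tested.

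The kallikreins are serine proteases that cleave the contacts of shed skin cells. KLK5 lay at 10.22 and 10.33 in vector samples and at 8.42 and 9.0 in CYT2 samples. It fell by 1.56 ± 0.17 (limma adjusted p = 0.00189), with -1.25 and -1.58 for its other probes. KLK7 lay at 7.17 and 7.75 against 5.59 and 6.07 and fell by 1.64 ± 0.19 (limma adjusted p = 0.00191). KLK10 fell by 0.86 ± 0.18, while its other probe gave -0.05. The cornified envelope precursor SPRR1B fell by 0.89 ± 0.19 and the desmosomal cadherin DSC2 by 0.65 ± 0.15 (limma adjusted p = 0.0349 and 0.0492).

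Not all of these calls held when 1 sample was left out. KRT4, KRT13, KLK5 and KLK7 passed whichever of the 4 samples was left out. DSC2, KLK10, KRT10 and SPRR1B, at -0.78 to -0.50, did not pass without CYT2 sample 1, and DSC2, at -0.73, did not pass without CYT2 sample 2. Without vector sample 1, DSC2, KLK10 and SPRR1B did not pass, at -1.04 to -0.73. Without vector sample 2, DSC2, KLK10, KRT1, KRT10 and SPRR1B did not pass, at -1.84 to -0.47. The count of 9 became 5, 8, 6 and 4 in that order.

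The bases before the starts of KLK5 and SPRR1B are shown because of their matches to searched motifs. Among the keratinocyte genes past the threshold with an upstream window, these had at least 2 matches of 1 motif there. They were chosen after the search. The windows hold the 250 bases upstream of the RefSeq gene start, 5′ to 3′ on the strand of the gene, in GRCh38.p14. Capitals mark matches on either strand to AP-1 (TGANTCA), ETS (CCGGAA), TEAD (GGAATG), CRE (TGACGTCA), CArG box or NF-kB motifs. KLK5 is on chromosome 19 at chr19:50953039-50953288 (minus strand), and SPRR1B on chromosome 1 at chr1:153030953-153031202 (plus strand).
KLK5: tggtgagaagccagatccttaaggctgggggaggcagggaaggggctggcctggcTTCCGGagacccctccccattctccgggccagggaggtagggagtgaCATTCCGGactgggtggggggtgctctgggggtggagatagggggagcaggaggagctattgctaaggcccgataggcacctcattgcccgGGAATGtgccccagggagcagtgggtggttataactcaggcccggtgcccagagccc
SPRR1B: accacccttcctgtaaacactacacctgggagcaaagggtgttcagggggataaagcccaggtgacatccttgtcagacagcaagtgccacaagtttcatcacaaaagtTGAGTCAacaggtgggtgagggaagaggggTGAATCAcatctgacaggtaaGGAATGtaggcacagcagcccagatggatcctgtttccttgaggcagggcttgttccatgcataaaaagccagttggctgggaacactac
KLK5 holds ETS matches that begin 195 and 146 bases before the start and TEAD matches at 148 and 57 bases, the pair at 148 and 146 overlapping. SPRR1B holds AP-1 matches at 141 and 111 bases and a TEAD match at 90 bases.

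Over all 35116 promoter windows in the table, 6.57% held an AP-1 match, 14.5% an ETS match, 11.9% a TEAD match, 1.65% a CRE match, 1.16% a CArG box and 5.21% an NF-kB match. Among the 196 windows available for the 168 genes that fell, the shares were 10.2%, 13.3%, 10.2%, 4.08%, 1.02% and 10.7%. Among 76 windows of the 71 genes that rose, they were 2.63%, 9.21%, 5.26%, 2.63%, 1.32% and 2.63%. Among 14327 windows of the genes tested, they were 4.80%, 21.8%, 9.86%, 2.47%, 1.08% and 6.01%. Some genes had no window, among them KRT1, KRT13, DUSP5, EGR3, FOSL1 and MYC of those that fell. Others had several windows, which can overlap, so that 1 match can be counted more than once, as in KLK7 and KLK10. These shares are a description of letters in these windows, not of all the genes, and were not tested.

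Of 22 measured ERK pathway feedback genes 9 fell in CYT2 cells and 0 rose, 20 lay below 0, and the median change was -0.67. The 9 were SPRY4, TRIB1, PLAUR, DUSP5, ERRFI1, PHLDA1, IER3, EPHA2 and SPRY2.

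SPRY4, a sprouty protein that restrains signalling from receptor kinases, lay at 7.53 and 7.65 in vector samples and at 6.46 and 5.38 in CYT2 samples. It fell by 1.67 ± 0.26 (SE, n = 2 against 2, 3.18-fold, limma adjusted p = 0.00925), while its dimmer probe gave -0.31. The vector samples were close to each other, and CYT2 sample 2 was the lowest. DUSP5, a nuclear phosphatase of ERK, lay at 9.60 and 9.84 against 8.69 and 8.35 and fell by 1.20 ± 0.16 (limma adjusted p = 0.00276). SPRY2, a relative of SPRY4, fell by 0.80 ± 0.15, from 8.72 and 9.01 to 8.26 and 7.88. ERRFI1, an inhibitor of EGF receptor family kinases, fell by 1.10 ± 0.22, from 9.45 and 9.95 to 8.85 and 8.35. In each of these genes CYT2 sample 2 was the lower of the pair.

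The other feedback genes that fell were not all inhibitors. The pseudokinase gene TRIB1 fell by 1.23 ± 0.26, PLAUR, the urokinase receptor, by 1.23 ± 0.23, PHLDA1 by 1.02 ± 0.17, IER3 by 0.96 ± 0.22 and the receptor kinase gene EPHA2 by 0.85 ± 0.18. The other probes of PLAUR gave -0.10 and -1.17, and that of PHLDA1 gave -0.47. DUSP6, the cytoplasmic ERK phosphatase and the best known gene of the list, lay at 9.99 and 10.52 against 9.58 and 8.64. Its change of -1.14 ± 0.32 did not pass (limma adjusted p = 0.0908), its other probe gave -1.53, and it is given here after its value was seen.

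DUSP5 alone passed whichever of the 4 samples was left out. All 9 passed without CYT2 sample 1. Without CYT2 sample 2, EPHA2, ERRFI1, IER3, PHLDA1, PLAUR, SPRY2 and TRIB1 did not pass, at -0.88 to -0.60. Without vector sample 1, EPHA2, IER3, PHLDA1, PLAUR and TRIB1 did not pass, at -1.20 to -0.67. Without vector sample 2, the 8 genes other than DUSP5 did not pass, at -1.61 to -0.65. Of these 9 genes 9, 2, 4 and 1 thus passed in that order.

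Of 23 measured immediate-early genes 7 fell and 0 rose, 22 lay below 0, and the median change was -0.66. EGR3, a zinc finger factor, lay at 5.87 and 7.16 in vector samples and was detected on 0 of 4 CYT2 arrays, at 4.67 and 4.41. It was at least 2.90-fold lower (limma adjusted p = 0.0285). KLF6, another zinc finger factor, lay at 10.99 and 11.03 against 9.95 and 9.49 and fell by 1.29 ± 0.17 (SE, n = 2 against 2, limma adjusted p = 0.00276). FOSL1, a subunit of AP-1, lay at 8.55 and 8.0 against 7.15 and 6.86 and fell by 1.27 ± 0.20 (limma adjusted p = 0.00858). In all of these both CYT2 samples were below both vector samples, as in every gene that fell. The groups did not overlap, in either direction, in 43.1% of all genes tested.

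MAFF, a small MAF factor, fell by 1.37 ± 0.21, with -0.67 and -0.29 for its other probes. IER5 fell by 0.79 ± 0.17, MYC, which drives growth, by 0.60 ± 0.12 and MCL1, an inhibitor of apoptosis, by 0.55 ± 0.12. The classical members FOS and EGR1, chosen after their values were seen, did not pass, at -0.57 ± 0.37 and -0.47 ± 0.36 (limma adjusted p = 0.491 and 0.57). The vector samples of EGR1 lay far apart, at 10.06 and 10.95.

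KLF6 alone of the 7 passed whichever sample was left out. EGR3, MCL1 and MYC did not pass without CYT2 sample 1, at -2.10 to -0.67, and EGR3, FOSL1, IER5, MCL1 and MYC did not pass without CYT2 sample 2, at -1.84 to -0.43. FOSL1, IER5, MCL1 and MYC did not pass without vector sample 1, at -0.99 to -0.53, and EGR3, IER5, MAFF, MCL1 and MYC did not pass without vector sample 2, at -1.36 to -0.52. The count of 7 became 4, 2, 3 and 2.

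Some growth factor and cytokine genes also fell. Of 16 measured ERBB receptors, ligands and adaptors, 3 fell and 0 rose, with a median change of -0.18. HBEGF, a ligand of EGFR and ERBB4, lay at 10.40 and 10.72 in vector samples and at 9.09 and 8.16 in CYT2 samples, and fell by 1.94 ± 0.37 (SE, n = 2 against 2, 3.84-fold, limma adjusted p = 0.0221). TGFA, a ligand of EGFR, lay at 9.37 and 9.51 against 8.68 and 8.46 and fell by 0.87 ± 0.11 (limma adjusted p = 0.00261), with -0.92 for its other probe. The docking protein gene GAB2, detected on 1 of 4 CYT2 arrays, fell by 0.56 ± 0.11. EREG, a ligand of EGFR and ERBB4 chosen after its value was seen, did not pass, at -0.35 ± 0.18 (limma adjusted p = 0.349).

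Among 19 measured inflammatory and NF-kB target genes 3 fell and 0 rose, 17 lay below 0, and the median change was -0.68. IL36G, an epithelial cytokine of the interleukin-1 family, lay at 6.83 and 7.28 against 5.41 and 4.88, with detection on 2 of 4 CYT2 arrays, and fell by 1.91 ± 0.24 (limma adjusted p = 0.00261). CXCL8, a chemokine that attracts neutrophils, lay at 9.02 and 9.72 against 8.13 and 6.81 and fell by 1.89 ± 0.40 (limma adjusted p = 0.0329), with -1.66 for its other probe. Both CYT2 samples were below both vector samples, and they lay far apart from each other. IL1B, another interleukin-1 cytokine, lay at 11.12 and 11.18 against 10.25 and 10.04 and fell by 1.01 ± 0.11 (limma adjusted p = 0.00189).

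IL1B, IL36G and TGFA passed whichever sample was left out. GAB2, at -0.62, did not pass without CYT2 sample 1. CXCL8, GAB2 and HBEGF did not pass without CYT2 sample 2, at -1.48 to -0.51, without vector sample 1, at -2.25 to -0.62, or without vector sample 2, at -1.78 to -0.51. The median of the inflammatory list was -0.98 and -0.36 without CYT2 samples 1 and 2, and -0.88 and -0.48 without vector samples 1 and 2. The inflammatory list had 5 members that fell without CYT2 sample 1 and 2 without each of the other samples.

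**Figure D2:**
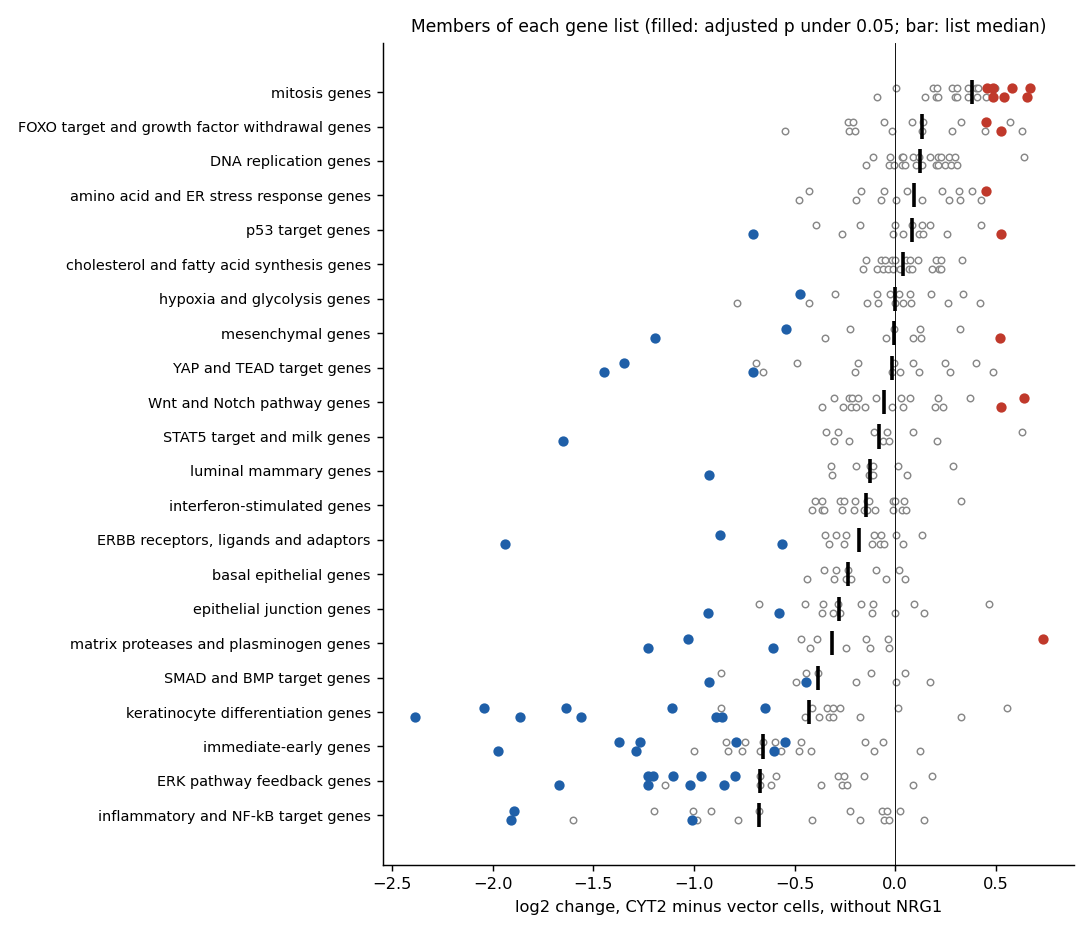
Log2 change between CYT2 and vector cells without NRG1 (x axis) for the measured members of 22 gene lists (rows, ordered by median), with filled points for members past the threshold (blue lower, red higher), open points for the rest and a bar at the list median. The inflammatory, ERK feedback and immediate-early lists have the lowest medians, at -0.68, -0.67 and -0.66, and the mitosis list the highest, at 0.38. Without CYT2 sample 2 the order of the low lists changed, to -0.63 for the keratinocyte, -0.61 for the feedback, -0.47 for the immediate-early and -0.36 for the inflammatory list.

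Genes outside these lists were among the largest falls. TCN1, a vitamin B12 binding protein, lay at 6.08 and 7.01 in vector samples and was detected on 0 of 4 CYT2 arrays, at 4.60 and 4.71, which put it at least 2.97-fold lower (limma adjusted p = 0.00191). IGFL1, of the insulin growth factor-like family, lay at 8.33 and 8.99 against 6.58 and 7.08 and fell by 1.83 ± 0.21 (SE, n = 2 against 2, limma adjusted p = 0.00191). FABP4, a fatty acid binding protein best known from adipocytes, fell by 1.76 ± 0.40, from 8.36 and 9.58 to 6.69 and 7.74. PIM1, a kinase induced by STAT5 and the 1 of 12 measured STAT5 target and milk genes past the threshold, lay at 8.62 and 8.70 against 7.43 and 6.59 and fell by 1.65 ± 0.33. In none of these did the groups overlap, which held for all 239 genes past the threshold and for 43.1% of all genes tested.

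Of 17 measured YAP and TEAD target genes 3 fell and 0 rose, and the median change of -0.01 was close to that of all genes. CCN2, a secreted matricellular protein, lay at 10.01 and 10.71 against 9.23 and 8.60 and fell by 1.44 ± 0.29 (limma adjusted p = 0.0289), with -1.15 for its other probe. F3, tissue factor, which starts coagulation, lay at 10.97 and 10.84 against 9.81 and 9.31 and fell by 1.35 ± 0.16 (limma adjusted p = 0.00191), with -0.83 for its other probe. The growth arrest gene GADD45A fell by 0.71 ± 0.15. GADD45A also stands in the list of p53 target genes.

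The upstream windows of CCN2 and F3 are shown because they too held at least 2 matches of 1 motif. CCN2 is on chromosome 6 at chr6:131951373-131951622 and F3 on chromosome 1 at chr1:94541760-94542009, both on the minus strand in GRCh38.p14 (RefSeq), with capitals as above.
CCN2: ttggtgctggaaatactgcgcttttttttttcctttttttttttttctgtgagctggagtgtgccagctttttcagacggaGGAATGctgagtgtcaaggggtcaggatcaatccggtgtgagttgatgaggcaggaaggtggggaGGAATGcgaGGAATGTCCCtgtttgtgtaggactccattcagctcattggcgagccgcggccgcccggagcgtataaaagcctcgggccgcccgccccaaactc
F3: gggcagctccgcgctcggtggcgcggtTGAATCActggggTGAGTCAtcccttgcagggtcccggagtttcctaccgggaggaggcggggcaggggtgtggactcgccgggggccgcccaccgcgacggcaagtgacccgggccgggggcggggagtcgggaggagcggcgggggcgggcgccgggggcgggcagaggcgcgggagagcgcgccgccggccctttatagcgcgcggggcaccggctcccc
CCN2 holds TEAD matches that begin 169, 104 and 95 bases before the start, the last inside an NF-kB match, and F3 holds AP-1 matches at 223 and 210 bases.

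Of 12 measured matrix protease and plasminogen genes 3 fell and 1 rose, with a median change of -0.32. PLAU, the urokinase whose receptor PLAUR is described above, fell by 1.03 ± 0.15, from 12.15 and 11.88 to 11.18 and 10.79. The matrix metalloproteinase gene MMP3, detected on 3 of 4 CYT2 arrays, fell by 0.61 ± 0.12. SERPINE2, an inhibitor of thrombin and urokinase, rose by 0.73 ± 0.14. Of 16 epithelial junction genes CLDN7, a claudin of tight junctions, fell by 0.93 ± 0.13 (9.11 and 9.11 against 8.11 and 8.25), as did GJB2, a gap junction connexin, by 0.58 ± 0.10, and 0 rose. Of 11 mesenchymal genes the actin-binding protein gene TAGLN fell by 1.19 ± 0.19 and the transcription factor gene TWIST1 by 0.54 ± 0.11, whereas COL4A1, a collagen of basement membranes, rose by 0.52 ± 0.12. Of 11 SMAD and BMP target genes ID1 fell by 0.93 ± 0.18, with -0.46 for its other probe, and BAMBI, a pseudoreceptor of the TGF-beta family, by 0.44 ± 0.10. FOXA1, a transcription factor, was the 1 of 12 luminal mammary genes past the threshold and fell by 0.93 ± 0.16. PFKFB3, a regulator of glycolysis, was the 1 of 17 hypoxia and glycolysis genes and fell by 0.47 ± 0.11.

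Of these 17 genes that fell, from TCN1 to PFKFB3, only CLDN7, F3, IGFL1 and TCN1 passed whichever of the 4 samples was left out. Without CYT2 sample 1, BAMBI, FABP4, GADD45A, GJB2, ID1, MMP3, PFKFB3 and TAGLN did not pass, at -1.23 to -0.44. Without CYT2 sample 2, BAMBI, CCN2, FOXA1, GADD45A, ID1, MMP3, PFKFB3, PIM1 and TWIST1 did not pass, at -1.23 to -0.40. Without vector sample 1, PFKFB3, PIM1, PLAU and TWIST1 did not pass, at -1.69 to -0.44. Without vector sample 2, 12 of the 17 did not pass, at -1.61 to -0.34, the exceptions being the 4 above and PLAU.

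The genes that rose changed less in size. ACOX2, an oxidase of branched fatty acids and bile acid precursors in peroxisomes, lay at 7.28 and 7.13 in vector samples and at 8.58 and 8.14 in CYT2 samples, and rose by 1.16 ± 0.16 (SE, n = 2 against 2, 2.23-fold, limma adjusted p = 0.00436). POGLUT3, a glucosyltransferase of the endoplasmic reticulum, lay at 5.06 and 5.04 against 6.21 and 6.03 and rose by 1.07 ± 0.11 (limma adjusted p = 0.00189), with detection on 3 of 4 vector arrays. The probe of KIR2DL4, a receptor of natural killer cells, lay at 5.58 and 5.81 against 6.70 and 6.95 and rose by 1.13 ± 0.13 (limma adjusted p = 0.00191). In all of these both CYT2 samples lay above both vector samples, as in every gene that rose. Among all genes tested, the groups were apart in either direction in 43.1%. KIR genes are near-identical to each other, so the gene behind this signal is uncertain.

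NRP2, a coreceptor of semaphorins and VEGF, lay at 5.59 and 5.55 against 6.40 and 6.39 and rose by 0.82 ± 0.12 (limma adjusted p = 0.00713), but its other probes gave -0.13, 0.24 and 0.28. GLDC, an enzyme of glycine breakdown, rose by 0.88 ± 0.18, the acid-sensing channel gene ASIC1 by 0.69 ± 0.14, and ACTMAP, a protease that matures actin, by 0.66 ± 0.09. PADI4, which converts arginine to citrulline in proteins, and TPRG1 were detected on 0 of 4 vector arrays and were at least 1.53-fold and 1.35-fold higher (limma adjusted p = 0.00699 and 0.0377). CTSK, a collagen-cleaving cathepsin, and MCF2 were each detected on 1 of 4 vector arrays and rose by 0.78 ± 0.12 and 0.67 ± 0.13. These last 4 genes were dim, at 4.67 to 5.68 in all 4 samples.

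Some genes of mitosis rose, as did the cyclin F gene CCNF, by 0.70 ± 0.12, from 8.78 and 8.77 to 9.52 and 9.43. Of 26 measured mitosis genes 7 rose and 0 fell, 25 lay above 0, and the median change was 0.38. CENPA, the histone H3 variant of centromeres, lay at 7.26 and 7.73 in vector samples and at 8.25 and 8.09 in CYT2 samples, and rose by 0.67 ± 0.14 (SE, n = 2 against 2, limma adjusted p = 0.0312), with 0.36 for its other probe. The microtubule depolymerase gene KIF2C lay at 7.97 and 7.85 against 8.62 and 8.51 and rose by 0.66 ± 0.14 (limma adjusted p = 0.0315). The kinase genes TTK, PLK1, AURKA and BUB1 rose by 0.58 ± 0.11, 0.54 ± 0.11, 0.49 ± 0.09 and 0.46 ± 0.10, and the cyclin gene CCNB2 by 0.49 ± 0.10. All 7 were higher by 1.37-fold to 1.59-fold. Both CYT2 samples lay above both vector samples in each, as in every gene that rose. Groups that did not overlap, in either direction, were found in 43.1% of all genes tested. CCNB1 and the proliferation marker MKI67, chosen after their values were seen, did not pass, at 0.48 ± 0.15 and -0.09 ± 0.14 (limma adjusted p = 0.13 and 0.81). Of 24 measured DNA replication genes 0 passed, and their median was 0.13.

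The calls of mitosis genes rested on all samples together. None of the 7 passed without CYT2 sample 1, at 0.41 to 0.60, or without CYT2 sample 2, at 0.50 to 0.75. AURKA passed without vector sample 1 and CENPA without vector sample 2, and the 6 others did not, at 0.40 to 0.72 and at 0.44 to 0.60. The list median stayed between 0.30 and 0.45 over the alternatives that were run.

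Few members passed in the remaining lists. SESN1, which restrains mTORC1, rose by 0.53 ± 0.11 among 17 FOXO target and growth factor withdrawal genes and 15 p53 target genes. DDIT4, another inhibitor of mTORC1, rose by 0.45 ± 0.10 in the FOXO list and among 16 genes of the amino acid and ER stress responses. The Notch ligand gene DLL1 and the Wnt receptor gene FZD2 rose by 0.53 ± 0.11 and 0.64 ± 0.11 among 20 Wnt and Notch pathway genes. Of 11 basal epithelial, 22 cholesterol and fatty acid synthesis and 22 interferon-stimulated genes 0 passed, with median changes of -0.23, 0.04 and -0.15. The medians of the mesenchymal, p53, hypoxia, cholesterol and fatty acid, and Wnt and Notch lists changed sign between alternatives.

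Among the 14 largest rises and COL4A1, DLL1, FZD2, SESN1 and DDIT4, 6 genes passed whichever sample was left out, namely ACOX2, ACTMAP, KIR2DL4, NRP2, PADI4 and POGLUT3. The 13 others did not pass without CYT2 sample 1, at 0.45 to 0.80. Without CYT2 sample 2, ASIC1, CENPA, COL4A1, CTSK, DDIT4, DLL1, GLDC and SESN1 did not pass, at 0.40 to 0.98. Without vector sample 1, CCNF, CENPA, COL4A1, DDIT4, MCF2, SESN1 and TPRG1 did not pass, at 0.43 to 0.72. Without vector sample 2, 12 of the 13 did not pass, at 0.37 to 0.73, the exception being CENPA.

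**Figure D3:**
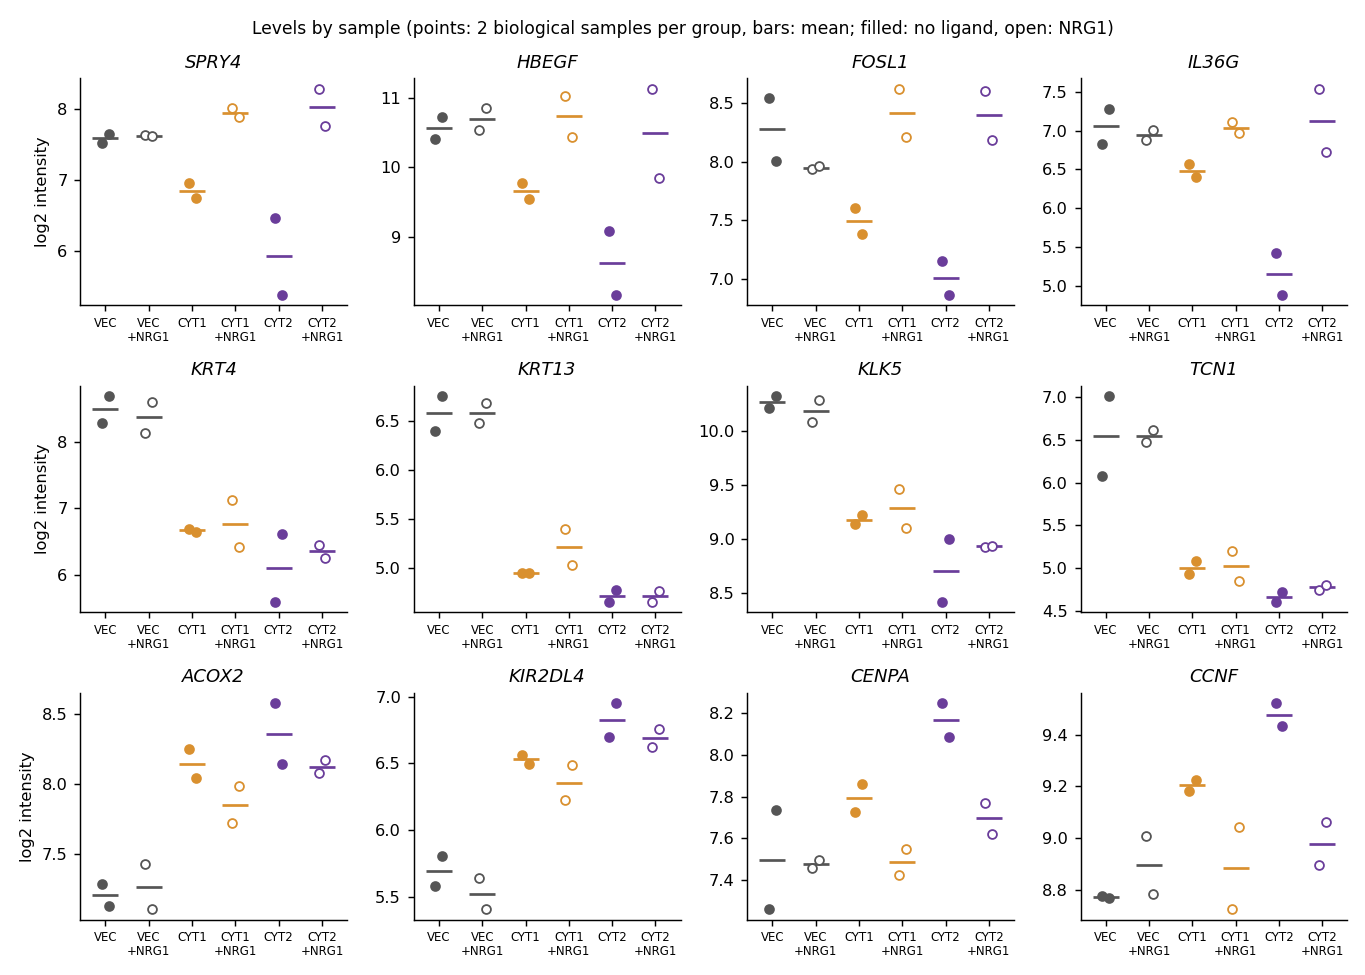
Log2 intensity (y axis, a separate scale per gene) of 12 genes in the 2 samples of each of the 6 groups, with bars at the group means, filled points without and open points with NRG1. SPRY4, HBEGF, FOSL1 and IL36G were lowest in CYT2 cells without NRG1, and KRT4, KRT13, KLK5 and TCN1 were lower than in vector cells with and without NRG1.

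The same lines were compared after 2 h of NRG1, in 4 samples whose values do not enter the changes without ligand. Here 49 genes passed (0.397%), 15 higher (0.121%) and 34 lower (0.275%). Genes past the threshold without ligand were read again in these samples. Of the 9 keratinocyte genes 6 also fell with NRG1 and all 9 lay below 0, with a median of -1.25 against -1.56 without it. Of the 9 feedback genes 0 fell with NRG1, and their median was 0.20 against -1.10. Of the 7 immediate-early genes 0 fell, with a median of 0.14 against -1.27, and of the 3 inflammatory genes 0 fell, with a median of 0.19 against -1.89. Of the 7 mitosis genes 0 passed with NRG1, and their median was 0.13 against 0.54. The genes were chosen by the comparison without ligand. The samples with NRG1 entered that choice through the shared estimate of the spread, so the reading is not fully independent of it. Genes chosen in this way also tend to show smaller changes in other samples.

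With NRG1, KRT13 was detected on 0 of 4 CYT2 arrays and was at least 3.10-fold lower (n = 2 against 2, limma adjusted p = 9.32e-05). KRT4 fell by 2.02 ± 0.29, KRT1 by 1.95 ± 0.32, KLK7 by 1.93 ± 0.19, KLK5 by 1.25 ± 0.17 and KRT10 by 1.16 ± 0.18. TCN1 fell by 1.77 ± 0.22 and was detected on 1 of 4 CYT2 arrays, IGFL1 fell by 1.41 ± 0.21, and CLDN7 by 0.92 ± 0.13. KIR2DL4, SERPINE2, ACOX2, POGLUT3 and NRP2 were higher, by 1.16 ± 0.13, 1.01 ± 0.14, 0.86 ± 0.16, 0.77 ± 0.11 and 0.73 ± 0.12. MMP3, which had fallen without ligand, rose by 2.00 ± 0.12 with it (limma adjusted p = 6.2e-06), and so did GJB2, by 0.56 ± 0.10. The cytokine gene IL33 and the receptor gene IL7R, which had not passed without ligand, rose by 1.26 ± 0.16 and 1.13 ± 0.12.

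Of the 168 genes that fell without ligand 24 (14.3%) also fell with NRG1, which were 70.6% of the 34 that fell there. Of the 71 genes that rose 6 (8.45%) also rose, which were 40% of the 15. Another 3 of those that had fallen rose with NRG1, MMP3, GJB2 and LRRC8C, the last named after its value was seen. The count of 49 became 16 and 4 without CYT2 samples 1 and 2 with NRG1, 20 and 4 without vector samples 1 and 2 with NRG1, and 63 without sample 1 of CYT1 cells with NRG1. KRT13, KLK7 and MMP3 kept their calls without each of these samples. KRT4, KLK5 and KRT10 lost theirs without CYT2 sample 1, CYT2 sample 2 or vector sample 2, and KRT1 without any of the 4, at -2.14 to -0.99 over these genes. ACOX2, KIR2DL4, NRP2, POGLUT3 and SERPINE2 did not pass without CYT2 sample 2 (0.72 to 1.09) or vector sample 2 (0.55 to 1.04), ACOX2, NRP2 and POGLUT3 not without CYT2 sample 1 (0.74 to 0.91), and ACOX2 and POGLUT3 not without vector sample 1 (0.76 to 1.02). CLDN7, GJB2, IGFL1 and TCN1 did not pass without CYT2 sample 2 (-1.80 to 0.50) or vector sample 2 (-1.71 to 0.65), CLDN7, GJB2 and IGFL1 not without CYT2 sample 1 (-1.52 to 0.63), and CLDN7 and GJB2 not without vector sample 1 (-0.81 to 0.48).

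The change of the line difference with NRG1 was tested directly as an interaction. It passed for 30 genes (0.243%), more positive with NRG1 in 27 (0.218%) and more negative in 3 (0.0243%), and 24 of the 30 were among the 239. The interaction contains the samples without ligand with reversed sign, so a gene chosen for a fall there leans toward a positive value. The overlap with the 239 and the counts by list below therefore carry no independent weight. MMP3 had a difference of 2.61 ± 0.16 (SE, n = 2 per group, limma adjusted p = 1.62e-05), F3 of 1.72 ± 0.22, FOSL1 of 1.71 ± 0.28, SPRY4 of 2.08 ± 0.37 and IL36G of 2.10 ± 0.34. DUSP5, KLF6, PHLDA1, TGFA and IL1B also passed, at 1.40 ± 0.22, 1.43 ± 0.23, 1.33 ± 0.23, 1.33 ± 0.16 and 1.13 ± 0.15. The 3 with a negative value were FBXO32, a ubiquitin ligase subunit of muscle atrophy, at -1.37 ± 0.23, FZD2 at -0.90 ± 0.15 and ACTMAP at -0.79 ± 0.13. Of the genes past the threshold without ligand, the interaction passed for 3 of 9 feedback, 2 of 7 immediate-early, 2 of 3 inflammatory, 0 of 9 keratinocyte and 0 of 7 mitosis genes, and the lists were not tested against each other. Among the keratinocyte genes KRT13 stood at -0.01 ± 0.20 and KRT4 at 0.37 ± 0.42 (limma adjusted p = 0.998 and 0.909). KRT13 was not detected in CYT2 cells with or without NRG1, so its value cannot show whether the difference stayed the same.

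MMP3 kept this call without any 1 of the 8 samples. The count of 30 became 1 without vector sample 2, and 1 without either vector sample with NRG1. It became 10 without vector sample 1, 6 without CYT2 sample 2, 47 without CYT2 sample 1, 6 without CYT2 sample 1 with NRG1 and 18 without CYT2 sample 2 with NRG1, and it was 30 without sample 1 of CYT1 cells with NRG1. Without vector sample 2, where MMP3 alone passed, DUSP5, PHLDA1 and SPRY4 lay at 1.28 to 2.01, FOSL1 and KLF6 at 1.41 to 1.98, IL1B, IL36G and TGFA at 1.10 to 1.87, F3 and GJB2 at 1.10 to 1.78, and ACTMAP and FZD2 at -0.86 to -0.81. The last pair did not pass without any 1 of the 8 samples.

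**Figure D4:**
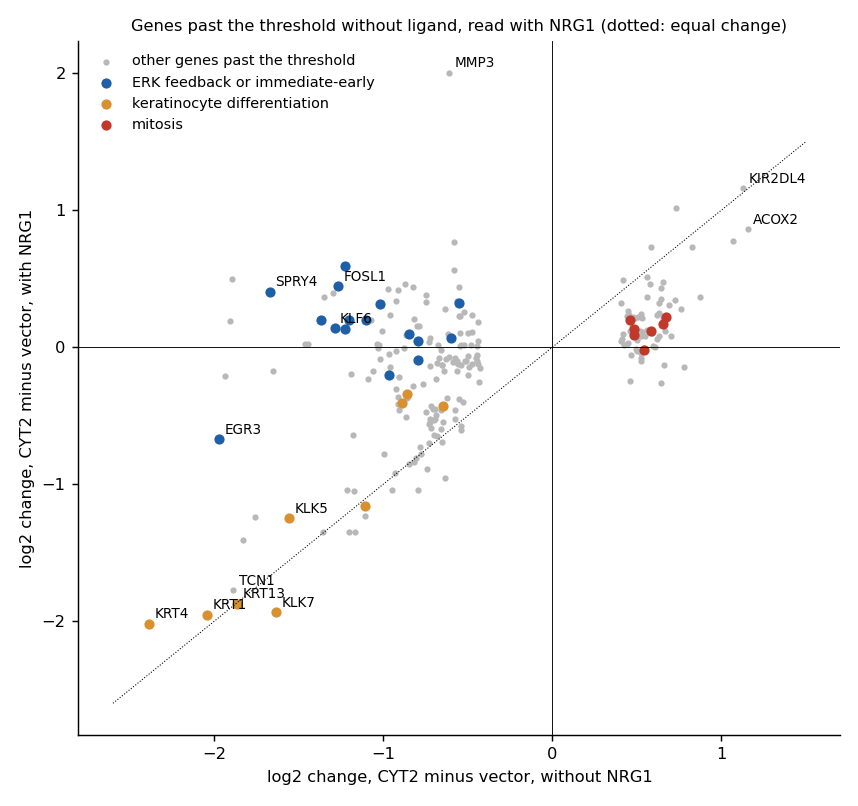
Log2 change between CYT2 and vector cells with NRG1 (y axis) against that without (x axis) for the 239 genes past the threshold without ligand, with ERK feedback or immediate-early genes in blue, keratinocyte differentiation genes in orange and mitosis genes in red. The dotted line marks equal changes. KRT4 lies at -2.02 with NRG1 and -2.39 without, close to that line, and SPRY4 at 0.41 and -1.67, far from it.

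CYT1 cells without ligand gave 24 genes past the threshold against the same vector samples (0.194%), 6 higher (0.0486%) and 18 lower (0.146%). The vector samples are shared, so the values are given side by side with no test of their likeness. KRT13 had a change of -1.63 ± 0.14 in CYT1 cells against -1.86 ± 0.14 in CYT2 cells, where it was not detected. Its fall in CYT2 cells is therefore known only as a bound. KRT4 had a change of -1.82 ± 0.29 against -2.39 ± 0.29, and POGLUT3 of 1.0 ± 0.11 against 1.07 ± 0.11. SPRY4 had -0.74 ± 0.26 against -1.67 ± 0.26, HBEGF -0.91 ± 0.37 against -1.94 ± 0.37, and CXCL8 -0.56 ± 0.40 against -1.89 ± 0.40. The 168 genes that fell in CYT2 cells had a median of -0.75 there and of -0.51 in CYT1 cells, and the 71 that rose had 0.54 and 0.39. In CYT1 cells 18 of the 168 and 4 of the 71 passed. These sets, like the single genes above, were chosen by their change in CYT2 cells, which alone makes smaller values in CYT1 cells likely. Over the whole keratinocyte list the median was -0.48 in CYT1 and -0.43 in CYT2 cells. Over the whole ERK feedback list it was -0.37 and -0.67.

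CYT2 and CYT1 cells without ligand were also compared directly, and 0 of 12357 genes passed in limma (0%), with a smallest adjusted p of 0.774. Without adjustment, 682 genes had a p under 0.05, 308 of them higher and 374 lower in CYT2 cells. The genes with the smallest p were IL36G, THBD, which encodes the anticoagulant receptor thrombomodulin, and TGFA, with differences of -1.34 ± 0.24, -0.48 ± 0.09 and -0.54 ± 0.11 (SE, n = 2 against 2). None of these passed. In this comparison the ERK feedback list had a median of -0.31, with 19 of 22 below 0, the inflammatory list of -0.34, with 19 of 19 below 0, and the keratinocyte list of -0.05, with 16 of 22 below 0. A p above the threshold does not show that the isoforms act alike.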

How the data were processed

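Per the file headers, the deposited scanner table holds an intensity with its detection p-value per probe (47323 probes, 24 arrays). The value table deposited by the authors holds log2 values that equalled the log2 of those signals to within 5e-09, with column medians of 6.83 to 6.98, so it is neither background-corrected, normalized nor centred. No source used here names the scanner. The files name no chips or dates that could be tested as batches. Per the labels' protocols, biotinylated cRNA was made with the Illumina TotalPrep kit from RNeasy Plus extracts.

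Intensities were processed with neqc (limma 3.58.1, R 4.3.3; offset 16, negative controls inferred from detection p-values). Probes detected (p under 0.05) on at least 4 of 24 arrays were kept, 23019 in all and 16620 with a name. In the platform annotation 30113 probes had 1 symbol, 8 several and 17202 none listed, and 30074 symbols matched a current one. The brightest probe stood for each of 12357 genes. Technical arrays were averaged, and 1 fit of group means over 12 samples (lmFit and eBayes, 6 residual and 6.31 prior degrees of freedom) gave all comparisons, with p-values adjusted by Benjamini-Hochberg over all genes. The script was tested on simulated data. Where all arrays of a group lacked detection, "at least N-fold" divides the bright group's mean by the dim group's, in which each array counts with the probe's signal or, if that is lower, with the dimmest detected signal. Arrays are few, and their number limits the precision.

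Named genes were the 14 largest rises and falls with groups that did not overlap, up to 4 members by smallest p of each of 22 lists, the ERBB receptors, and elsewhere the 5 largest each way or, with fewer than 3, the 3 with the smallest p. Further list members past the threshold were named after their values were seen. The lists and rules were chosen with earlier results of these data known. Replicate numbers are shared between groups, but deviations of same-numbered samples went together weakly at most. Their correlation was -0.005 between CYT2 and vector cells without NRG1, and -0.17 to 0.23 over all pairs of groups. Between samples of 1 line with and without NRG1 it was 0.23 in vector, 0.18 in CYT2 and -0.17 in CYT1 cells. The replicate numbers were not used to pair samples. Alternatives covered the background correction, normalization, offset, filter, probe per gene, samples in the fit, technical arrays, variance prior, a replicate block and leaving out each sample.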

Additional observations from a re-analysis of the deposited data

Results flagged for a closer look

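The difference between CYT2 and vector cells changed with NRG1, by the interaction term in limma, for 30 genes, and those described here are given with the value with NRG1 minus the value without, on the log2 scale. More positive with NRG1 were MMP3 (2.61), IL36G (2.10), SPRY4 (2.08), F3 (1.72), FOSL1 (1.71), S1PR3 (1.70), KLF6 (1.43), IL33 (1.43), DUSP5 (1.40), PHLDA1 (1.33), TGFA (1.33), SPHK1 (1.26), MMP10 (1.19), GJB2 (1.14), IL1B (1.13), GBP1 (1.06), IL7R (1.0), THBD (0.86) and CDCP1 (0.78). More negative were FBXO32 (-1.37), FZD2 (-0.90) and ACTMAP (-0.79). MMP10, S1PR3, SPHK1, GBP1 and CDCP1 were chosen after their values were seen. Groups of 2 samples are too small for a search for single outlying samples.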

How the results depend on the processing

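The 239 genes between CYT2 and vector cells without NRG1 became 38 on the authors' unnormalized value table, 140 with a common median per array, 148 with only the groups compared, 785 with all 24 arrays and the sample as a random block, 119 and 71 on technical arrays 1 and 2 alone, and 80 to 133 with 1 of the 4 samples left out. They became 359 without sample 1 of CYT1 cells with NRG1, chosen after seeing the data. The remaining settings gave 176 to 344 genes. Against CYT1 cells the count was 3 with the random block and 0 elsewhere. With NRG1, 49 became 8 on the value table (62.5% higher, against 30.6%), 20 without a filter, 216 with the random block, 32 and 23 on the technical sets and 4 to 20 with a sample left out. The interaction count of 30 became 5 on the value table, 55 with an offset of 50, 12 without a filter, 16 with only the groups compared, 175 with the random block, 14 and 4 on the technical sets, 63 with trend and robust, and 1 to 47 with a sample left out. The replicate block gave 276, 0, 63 and 46 genes in the 4 comparisons. The share of higher genes among those past the threshold without NRG1 was 29.7%, 43.9% with the random block, 16.9% with only the groups compared, 18.5% and 16.9% on the technical sets and 11% to 31.2% with a sample left out. Mitosis genes that rose numbered 0 on the value table, 2 with a common median, 12 without background correction and 16 with the random block. Of 1526 values of named genes under alternatives 1147 kept the call, 377 kept direction but not the call and 2 gained it. Where the change passed in either setting, 0 changed sign. Sign changes between values that passed in neither setting were not counted apart and stand among the 1147. Causes were not tested. Intensities near background limit EGR3, TCN1, KRT13, PADI4 and TPRG1 to bounds.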

Other observations

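Among genes picked with their values known, CRABP2, ALDH1A3, DHRS3 and FABP5 fell in CYT2 cells without NRG1. They are given as single genes and stand for no list. CRABP2, which carries retinoic acid in the cell, fell by 1.18 ± 0.18 (SE, n = 2 against 2, limma adjusted p = 0.00742). ALDH1A3, which makes retinoic acid, lay at 9.98 and 9.77 against 8.98 and 8.65 and fell by 1.06 ± 0.15, with -1.20 for its other probe. DHRS3, a retinal reductase, fell by 0.70 ± 0.12, and FABP5, a fatty acid binding protein of keratinocytes, by 0.73 ± 0.15. With NRG1, CRABP2 and DHRS3 also fell, by 1.05 ± 0.18 and 0.64 ± 0.12, and ALDH1A3 did not pass, at -0.18 ± 0.15. ALDH1A3 passed whichever of the 4 samples without NRG1 was left out. CRABP2 and FABP5 did not pass without vector sample 2 (-0.98 to -0.58), DHRS3 and FABP5 not without CYT2 sample 1 (-0.72 to -0.54), and DHRS3 not without CYT2 sample 2 (-0.69) or vector sample 1 (-0.54). With NRG1, CRABP2 and DHRS3 did not pass without any 1 of the 4 samples (-1.16 to -0.53).

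The thrombomodulin gene THBD lay at 7.6 and 7.72 in vector samples and at 6.55 and 6.59 in CYT2 samples. It fell by 1.09 ± 0.09 (limma adjusted p = 0.000306). Further genes chosen after their values were seen were the sphingosine phosphate receptor gene S1PR3 (-1.30 ± 0.16), the kinase gene SPHK1, which makes its ligand (-0.83 ± 0.15), the epidermal transcription factor gene ZNF750 (-1.18 ± 0.15), the transcription factor gene SOX9 (-1.03 ± 0.15) and GBP1, an interferon-induced GTPase (-1.04 ± 0.12). Contractile and matrix genes that fell were MYL9 (-0.86 ± 0.20), CSRP1 (-0.69 ± 0.14) and THBS1 (-0.86 ± 0.18). Higher were the proteoglycan gene VCAN (0.64 ± 0.11) and PPARG, a nuclear receptor of lipid metabolism (0.59 ± 0.11, with 0.11 for its other probe). THBD, S1PR3, ZNF750, SOX9 and GBP1 passed whichever sample was left out. CSRP1 and SPHK1 did not pass without any 1 of the 4 samples, MYL9 not without CYT2 sample 1 or either vector sample, and THBS1 not without CYT2 sample 2 or either vector sample, at -1.06 to -0.57. VCAN and PPARG did not pass without CYT2 sample 1 (0.48 to 0.54), PPARG not without vector sample 1 (0.49) and VCAN not without vector sample 2 (0.56).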
